A study of Homo sapiens with 7 samples.

Results

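Cells take up iron by binding transferrin at the cell surface, move it across membranes with metal transporters, store it in ferritin and release the surplus through ferroportin. The mRNAs of several of these proteins carry an iron-responsive element (IRE), a short stem-loop that the iron regulatory proteins bind when iron is scarce. Binding in the 5'UTR blocks translation of ferritin and ferroportin, and binding in the 3'UTR protects the mRNA of the transferrin receptor from decay. Developing red cells take up more iron than most cells because they make heme. The 9 genes described here were chosen by symbol for these roles, out of 62238 genes in the count tables. They are TFRC and TFR2 (transferrin receptors), SLC11A2 and SLC40A1 (iron import across membranes and iron export), FTH1 and FTL (the ferritin chains), HMOX1 (the inducible heme oxygenase, which frees iron from heme), and IREB2 and ACO1 (which encode the iron regulatory proteins).

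The RNA-seq compared 1 control library with 2 lines in which RBM15, an RNA-binding protein, was knocked down by a different shRNA each, shRBM15#1 and shRBM15#2. All were MEG-01 cells, a megakaryoblastic leukemia line of human origin, labelled as carrying lentiviral transgenes, at passage 5, grown in RPMI1640 with 10% FBS and harvested in exponential phase. The RIP-seq used the same cell line, with an antibody against RBM15 or normal immunoglobulin. It comprised 4 libraries, of which only 1 with each antibody could be assigned to a condition. Each line, made with 1 shRNA, counts as 1 replicate, so a difference shared by both lines cannot be told apart from a difference of the single control culture.

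The libraries held 53230029 (control), 41629454 (shRBM15#1) and 52458857 (shRBM15#2) counts on exon bins, the non-overlapping pieces into which the annotated exons of a gene are divided. Reads that span several bins are counted in each. RBM15 had 80.2 counts per 1000000 reads (CPM) in the control, 43.7 under shRBM15#1 and 40.7 under shRBM15#2. Both knockdown lines were below the control, by 0.93 on the log2 scale (SE 0.23), which did not pass the test across all genes (edgeR quasi-likelihood, adjusted p = 0.091). Among lineage markers, 6 of 16 erythroid genes tested were called higher at an adjusted p under 0.01, against 0.0683% of all genes tested. The summed level of the 16 went from 1341 CPM in the control to 7807 and 7443 CPM. Most of that sum was HBG2 (707, 3541 and 3488 CPM) and HBE1 (362, 3326 and 3021 CPM). All 16 had a log2 fold change above 0, from 0.26 to 3.94. No megakaryocyte gene of 7 passed, with ITGA2B at 919, 476 and 607 CPM and ITGB3 at 6.28, 17.9 and 51.8 CPM. In that list 5 genes had a log2 fold change above 0 and 2 below, with a median of 0.94. CTSG, a granule protease, was the only one called, as lower, of 7 monocyte and granulocyte genes, at 95.8, 3.73 and 8.55 CPM, against 0.277% of all genes called lower. LYZ, lysozyme, was at 35.3, 25.6 and 50.9 CPM. CTSG was the only gene of these 7 with a log2 fold change below 0. The other 6 were above 0, none of them called, and the median of the list was 1.23. PF4 and GP9, both megakaryocyte genes, and HBZ and ELANE were below the count minimum. In bulk samples, a changed number of cells of a type and a changed amount of RNA per cell cannot be told apart.

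IREs were looked for in the UTRs of annotated transcripts as the loop letters CAGTGN, the last base not G, a cytosine before the 5 bases that precede the loop, and 5 paired bases below the loop, with 1 unpaired base on the 3' side allowed. The search followed the transcript strand only and could not find elements with other loop letters. Of 19807 protein-coding genes, 1.81% had such letters in either UTR, and 0.712% without the unpaired base. They were present in 6 of the 9 genes. The sequences below are shown because the exon reads in the following paragraphs are described by whether they hold them. The loop is in capitals, the sequences run 5' to 3' on the strand of the gene and the positions are those of GRCh37.

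TFRC IRE, 3'UTR, chr3:195777850-195777879, minus strand: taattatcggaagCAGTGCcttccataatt
TFRC IRE, 3'UTR, chr3:195777446-195777475, minus strand: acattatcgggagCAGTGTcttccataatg
TFRC IRE, 3'UTR, chr3:195777381-195777410, minus strand: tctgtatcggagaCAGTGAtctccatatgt
TFRC IRE, 3'UTR, chr3:195777334-195777363, minus strand: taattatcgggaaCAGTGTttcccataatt
SLC11A2 IRE, 3'UTR, chr12:51382052-51382081, minus strand: tagccatcagagcCAGTGTgtttctatggt
SLC40A1 IRE, 5'UTR, chr2:190445387-190445416, minus strand: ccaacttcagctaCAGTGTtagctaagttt
FTH1 IRE, 5'UTR, chr11:61735046-61735075, minus strand: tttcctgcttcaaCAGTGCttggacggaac
FTL IRE, 5'UTR, chr19:49468591-49468620, plus strand: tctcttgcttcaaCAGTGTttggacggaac

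The FTH1 and FTL elements share most of their bases and differ in the last letter of the loop. In SLC11A2 the match needed the unpaired base. IREB2 matched only in its 3'UTR and with the unpaired base (chr15:78793310-78793339), which is a match of letters alone. TFR2, HMOX1 and ACO1 had no match in these transcripts.

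All 9 genes passed the minimum of 30 summed reads. In the control, the levels per length (reads per kb of exon per 1000000 reads, over exon bins of the canonical transcript that no other gene shares) were highest for FTL, at 2116, and then TFRC, at 101, and FTH1, at 98.0. The lowest were SLC40A1, at 2.23, and HMOX1, at 1.97. SLC40A1 was at 13.4 ± 4.22 (SD, n = 2) in the knockdown lines, SLC11A2 at 9.80 ± 0.21 and HMOX1 at 6.98 ± 1.02, on the same scale. ACO1 (18.3 ± 1.32) and TFR2 (16.7 ± 1.07) were neighbors in that order whose 2 lines overlapped, as did TFR2 and SLC40A1. The plot of levels per library shows that FTL, IREB2 and SLC11A2 kept nearly one level, while TFRC, SLC40A1 and HMOX1 had a gap between the control and both lines.

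**Figure D1:**
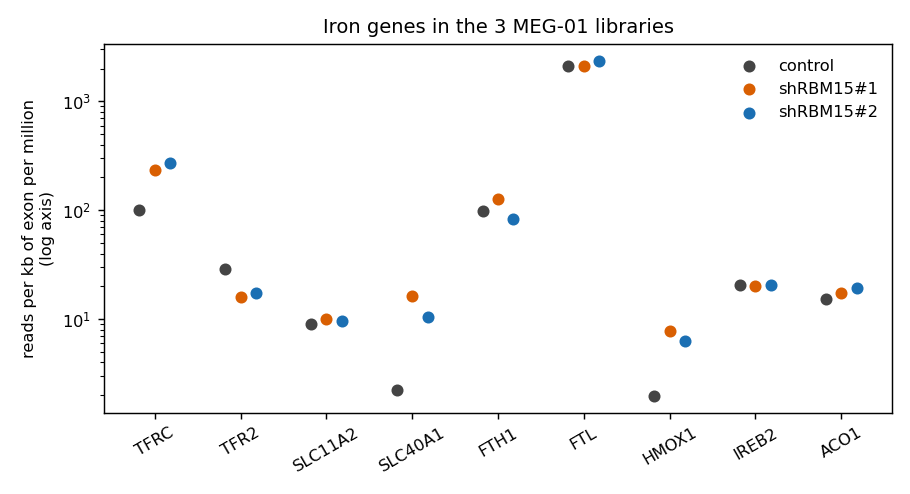
Level of the 9 iron genes in each library, as reads per kb of exon per 1000000 reads on a log axis, 1 point per library (control, shRBM15#1, shRBM15#2). FTL was at 2116 in the control and HMOX1 at 1.97, and the control point of TFRC, SLC40A1 and HMOX1 lies below both knockdown points.

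At the gene level, TFRC, SLC40A1 and HMOX1 were higher in both knockdown lines than in the control and TFR2 was lower in both, while the ferritin chains, SLC11A2 and the iron regulatory protein genes had log2 fold changes between 0.01 and 0.25. None of the 9 passed an adjusted p under 0.01 in edgeR, where 0.0683% of the 24887 genes tested were called higher and 0.277% lower. At an adjusted p under 0.05, 3 of 9 were higher (0.534% of all genes) and 0 lower (1.2% of all genes). Without adjustment, 4 of 9 had a p under 0.05, against 18.8% of all genes. DESeq2 called the same 3 higher genes at an adjusted p under 0.01, where it called 0.792% of all genes higher. Both lines were at least 1.5-fold above the control in 3 of 9 genes, against 18.8% of all genes, and at least 1.5-fold below it in 1 of 9, against 11% of all genes. The median log2 fold change of the 9 was 0.10, and that of all genes 0.017. With 1 control, the spread behind each of these tests came from the 2 knockdown lines alone.

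TFRC encodes transferrin receptor 1, which carries iron-loaded transferrin into the cell. The gene (ENSG00000072274, chromosome 3 from 195754054 to 195809060) had 526 CPM in the control, 1202 under shRBM15#1 and 1414 under shRBM15#2. Both lines were above the control, by 2.29-fold and 2.69-fold. The fitted log2 fold change was 1.31 (SE 0.24, adjusted p = 0.036, edgeR). Its paralog TFR2, which takes part in iron sensing in liver and red cell precursors, went the other way. TFR2 (ENSG00000106327, chromosome 7 from 100218039 to 100240402) had 88.9 CPM in the control, 49.3 under shRBM15#1 and 54.3 under shRBM15#2, a log2 fold change of -0.78 (SE 0.22, adjusted p = 0.13, edgeR). Both lines lay below the control, but the difference did not pass the adjustment.

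SLC40A1 encodes ferroportin, the iron exporter. It had the largest fold change of the 9 genes (ENSG00000138449, chromosome 2 from 190425305 to 190448484), at 8.25 CPM in the control, 59.9 under shRBM15#1 and 38.1 under shRBM15#2. The lines were 7.26-fold and 4.62-fold above the control and did not agree on the size. The log2 fold change was 2.57 (SE 0.36, adjusted p = 0.013, edgeR). SLC11A2 encodes DMT1, which brings ferrous iron across membranes. SLC11A2 (ENSG00000110911, chromosome 12 from 51373184 to 51422349) had 42.9 CPM in the control and 47.1 and 44.6 CPM in the knockdown lines, a log2 fold change of 0.10 (SE 0.24, adjusted p = 0.87, edgeR). The importer therefore showed no difference beyond its error, while exporter mRNA was several-fold higher.

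HMOX1 (ENSG00000100292, chromosome 22 from 35776354 to 35790207) had 160 reads in control cells, 549 under shRBM15#1 and 533 under shRBM15#2, which is 3.23, 12.3 and 10.2 CPM. Both lines were more than 3-fold above the control, with a log2 fold change of 1.80 (SE 0.36, adjusted p = 0.049, edgeR). HMOX2, the constitutive heme oxygenase, had 42.9, 51.2 and 62.3 CPM (adjusted p = 0.42, edgeR).

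The ferritin light chain FTL (ENSG00000087086, chromosome 19 from 49468558 to 49470135) was the most abundant of the 9, with 1860 CPM in the control, 1845 under shRBM15#1 and 2077 under shRBM15#2. One line was just below and the other just above the control, and the log2 fold change was 0.08 (SE 0.22, adjusted p = 0.89, edgeR). The heavy chain FTH1, which oxidizes iron for storage (ENSG00000167996, chromosome 11 from 61727190 to 61735132), had 36.5 CPM in the control, 46.4 under shRBM15#1 and 31.2 under shRBM15#2. The lines lay on either side of the control, with a log2 fold change of 0.09 (SE 0.30, adjusted p = 0.90, edgeR). FTH1 was counted in part only. Of its 26 exon bins, 13 had no read in any library, and 14 overlap another gene's bins, where a read names no gene. Its level per length therefore rests on 349 bp of exon. Reads were also placed on ferritin pseudogenes. The 25 annotated FTH1 pseudogenes held 1659, 1598 and 1358 reads, close to the 1805, 2076 and 1629 reads of FTH1 itself, and the 16 FTL pseudogenes held 14934, 12628 and 17103 reads. With these reads added, the log2 fold change of FTH1 was -0.01, so its sign depends on where such reads are placed.

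IREB2 encodes iron regulatory protein 2 and ACO1 encodes iron regulatory protein 1, which doubles as the cytosolic aconitase. IREB2 (ENSG00000136381, chromosome 15 from 78729773 to 78793798) had 135 CPM in the control, 135 under shRBM15#1 and 138 under shRBM15#2, a log2 fold change of 0.01 (SE 0.22, adjusted p = 0.99, edgeR). ACO1 (ENSG00000122729, chromosome 9 from 32384618 to 32450834) had 54.4, 61.6 and 68.1 CPM. Both lines were above the control, by a log2 fold change of 0.25 (SE 0.23, adjusted p = 0.60, edgeR). The difference in either gene was about as large as its standard error or smaller than it.

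**Figure D2:**
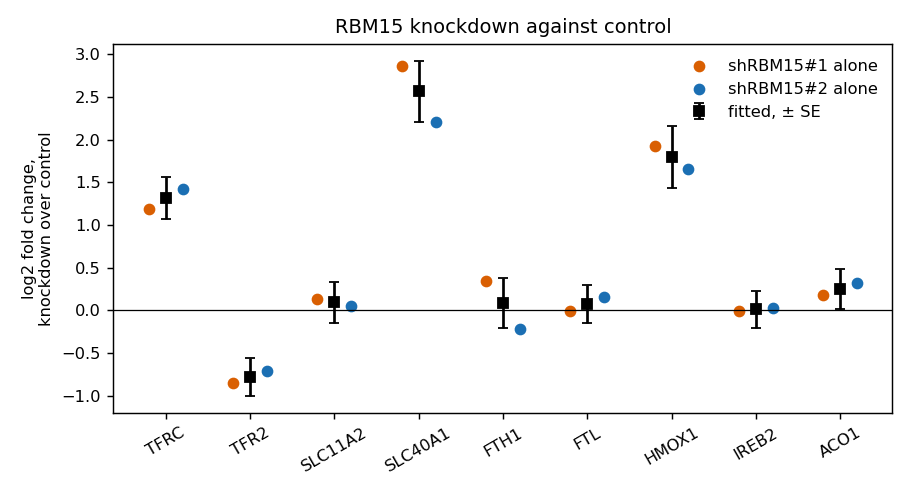
Log2 fold change of knockdown over control for the 9 iron genes. Squares with bars are the fitted value ± SE, circles the value of each line against the control. SLC40A1 was at 2.57, HMOX1 at 1.80, TFRC at 1.31 and TFR2 at -0.78, and the other genes lie between 0.01 and 0.25.

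Exon usage compares a bin with the other bins of its gene. Of the 300 bins of the 9 genes, 232 had at least 30 reads and were tested. With a fold above 1.2 and p under 0.05 before adjustment, 11 of them passed, which is 4.74%, against 1.45% of all 234192 bins tested. Of these, 8 were in TFRC, 2 in SLC11A2 and 1 in TFR2. Bins of a gene share reads and are not independent. At an adjusted p under 0.05, 0 of the 232 passed, against 0.0205% of all bins.

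In TFRC the reads on exons followed the gene total and those on parts of several introns did not. The bins in exons of the canonical transcript summed to 506 CPM in the control, 1169 under shRBM15#1 and 1374 under shRBM15#2. None of the 30 tested exon bins passed, and their log2 changes relative to the gene were between -0.21 and 0.19. Bins that lie in introns of that transcript belong to other annotated transcripts. Of 15 such bins tested, 6 passed, each lower relative to the gene. Over all genes 2.27% of intron-lying bins tested passed in that direction, and 4.77% did in genes at least 1.5-fold higher in both lines. The 6 bins, 72 to 355 bp wide, summed to 4.36 CPM in the control, 3.92 under shRBM15#1 and 4.34 under shRBM15#2, so that the control lay just above both lines. This sum describes bins picked by the test.

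The bin with the smallest p was intron-lying bin 022 of TFRC (chromosome 3 from 195787121 to 195787475), for which there were 59 reads in the control, 44 under shRBM15#1 and 48 under shRBM15#2. It held 0.227% of the reads of the gene in the control (95% Wilson interval 0.176% to 0.292%), 0.0817% (0.0609% to 0.110%) under shRBM15#1 and 0.0651% (0.0491% to 0.0863%) under shRBM15#2. Its log2 change relative to the gene was -1.64 (unadjusted p = 2.4e-05, adjusted p = 0.085, edgeR). The intervals of both lines lie below that of the control. The other 9 intron-lying bins had log2 changes relative to the gene between -0.78 and 0.00. All 15 intron-lying bins taken as 1 unit gave -0.43 (unadjusted p = 0.16, edgeR), so the difference is not shown for TFRC introns as a whole. The other 2 TFRC bins that passed, 047 and 048, are 1 bp and 3 bp wide, adjoin each other before the canonical start and largely share their reads. They were lower relative to the gene, by log2 changes of -1.03 and -0.96.

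The 4 TFRC IREs found by the search lie in 1 bin, a 3'UTR exon bin from 195776347 to 195778632. This bin had 5044 reads in the control, 11608 under shRBM15#1 and 15676 under shRBM15#2. It moved with the gene, with a log2 change relative to it of 0.14 (unadjusted p = 0.59, edgeR).

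**Figure D3:**
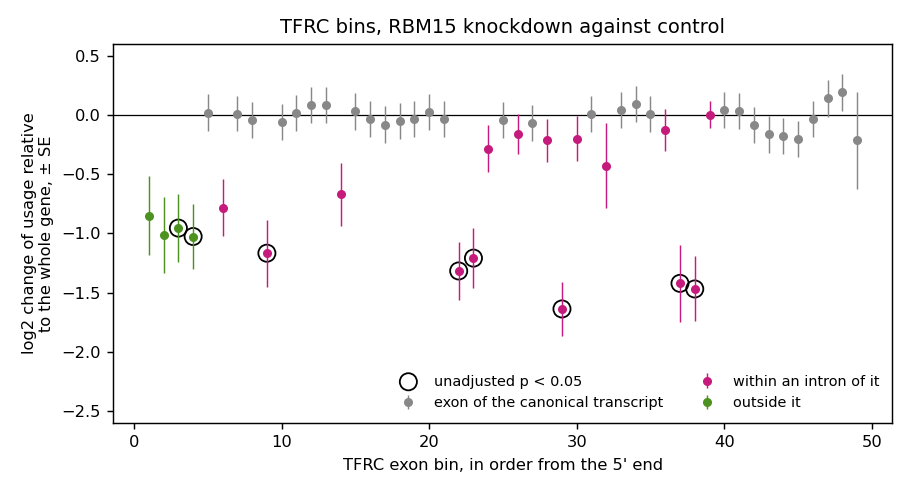
Log2 change of usage relative to the whole gene for each of the 49 tested TFRC bins in order from the 5' end. The ± SE bars were derived from the F statistic and are too short for the p-values of these bins. Gray bins are in exons of the canonical transcript, pink ones within its introns and green ones outside it, and circles mark an unadjusted p under 0.05. Exon bins stay between -0.21 and 0.19, and 6 of 15 intron-lying bins sit between -1.64 and -1.17.

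SLC11A2 transcripts end in either of 2 last exons, of which one carries the IRE in its 3'UTR. The last exon with the IRE, without the 54 bp at its start that both forms use (chromosome 12 from 51379775 to 51382164), took 320 reads in the control, 431 under shRBM15#1 and 491 under shRBM15#2. These were 15.1% of the reads of the gene in the control (95% Wilson interval 13.6% to 16.7%), 20.4% (18.8% to 22.2%) under shRBM15#1 and 21.1% (19.5% to 22.8%) under shRBM15#2. The counting intervals of both lines lie above that of the control. They are too narrow, because a read spanning several bins enters these sums more than once. The other last exon (from 51373184 to 51375586) had 154, 133 and 135 reads, or 7.25%, 6.31% and 5.80% of the gene, with overlapping intervals. Of the reads on both last exons, the one with the IRE held 67.5% in the control, 76.4% under shRBM15#1 and 78.4% under shRBM15#2.

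Taken as 1 unit each, the last exon with the IRE had a log2 change relative to the gene of 0.46 (unadjusted p = 0.088, edgeR). The other one had -0.26 (unadjusted p = 0.38, edgeR), so neither passed. Merging the bins was chosen after the data were seen. Within the last exon with the IRE, bin 011, next to the bin with the IRE itself, passed without adjustment, with 34 reads in the control, 58 under shRBM15#1 and 70 under shRBM15#2 (log2 change 0.84, unadjusted p = 0.042, adjusted p = 1, edgeR). Bin 012, which holds the element, had 33, 37 and 45 reads (log2 change 0.24, unadjusted p = 0.59, edgeR). An 18 bp exon bin in the middle of the gene, 039, had 34, 14 and 16 reads and passed in the lower direction, with a log2 change of -1.25 (unadjusted p = 0.014, adjusted p = 1, edgeR).

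**Figure D4:**
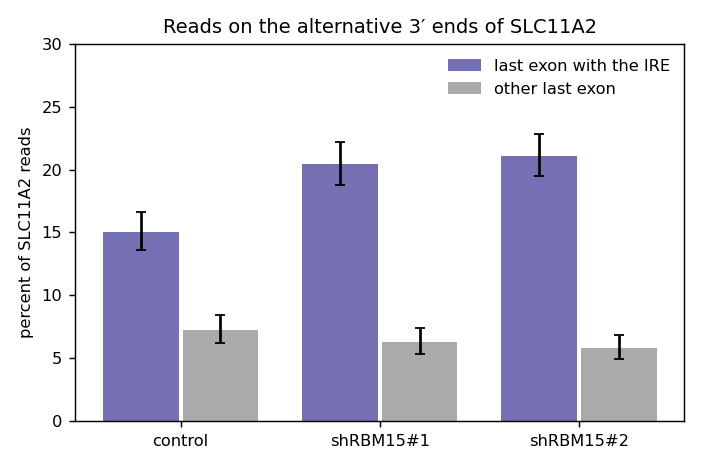
Percent of SLC11A2 reads on each of its alternative last exons in the 3 libraries, with 95% Wilson intervals as bars of counting error. The bars are too short, because a read spanning several bins enters the sums more than once. The last exon with the IRE took 15.1% in the control against 20.4% and 21.1% in the lines, and the other last exon 7.25%, 6.31% and 5.80%.

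In the genes with an IRE in the 5'UTR, the bin with the element did not pass the usage test. For SLC40A1 and FTH1 the SE was wide, and a change of its size would not have been seen. In SLC40A1 the bin had 16 reads in the control, 90 under shRBM15#1 and 71 under shRBM15#2, with a log2 change relative to the gene of -0.22 (SE 0.92, unadjusted p = 0.82, edgeR). In FTL it had 28289, 26154 and 34156 reads, with a log2 change of 0.04 (unadjusted p = 0.88, edgeR). The FTH1 bin with the loop had 253, 331 and 257 reads, with a log2 change of 0.17 (SE 0.46, unadjusted p = 0.71, edgeR). In the IREB2 bin with the 3'UTR match, reads numbered 1623, 1363 and 1538, with a log2 change of -0.14 (unadjusted p = 0.59, edgeR). In TFR2, intron-lying bin 036 had 22, 17 and 35 reads while the gene was lower in both lines. It passed without adjustment (log2 change relative to the gene 1.02, unadjusted p = 0.046, adjusted p = 1, edgeR), with the shRBM15#1 count below and the shRBM15#2 count above that of the control. The smallest unadjusted p among the bins of SLC40A1, FTH1, FTL, HMOX1, IREB2 and ACO1 was 0.086, in the first bin of ACO1.

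In the RIP-seq, 1 of the 9 genes had an RBM15 site, ACO1. Among all genes tested for expression 3.65% had a site by symbol, so 1 of 9 is not a result about iron genes. The site lies in the 3'UTR (chromosome 9 from 32450250 to 32450771 in hg19, 522 bp, plus strand). The library made with the RBM15 antibody held 242 reads there and the one made with normal IgG held 9. Over the 1515 sites the median was 262 and 8 reads, so the ACO1 site was near the middle of the list. The list holds the sites that the authors called significant, with more reads for the RBM15 antibody, from replicate libraries of each antibody. Only 1 library per antibody was used here, so the 242 and 9 reads have no replicate check of their own. The exon bin that holds the site, the end of the last exon of ACO1, had 335 reads in the control, 308 under shRBM15#1 and 363 under shRBM15#2. Its log2 change relative to the gene was -0.22 (unadjusted p = 0.41, edgeR). No other member had a site by symbol or within its span.

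Of 66 further genes in 6 lists of iron handling, 64 were tested and 0 passed an adjusted p under 0.01 or under 0.05, in either direction (edgeR). Their median log2 fold change was 0.21, with 39 above and 25 below 0. In the transferrin cycle list, the proteins that reduce, release and traffic iron in endosomes, 0 of 9 passed. STEAP3, the main endosomal ferric reductase of red cell precursors, had 8.45 CPM in the control and 19.5 and 17.3 in the knockdown lines (log2 fold change 1.12, adjusted p = 0.11, edgeR). MCOLN1, an iron-conducting channel of endosomes and lysosomes, had 8.99, 10.2 and 10.3 CPM (log2 fold change 0.19, adjusted p = 0.79, edgeR). STEAP1 had 3.01, 6.23 and 7.57 CPM (log2 fold change 1.196, adjusted p = 0.16, edgeR). SNX3, which sorts the receptor back to the surface, had 142, 108 and 162 CPM, with the lines on either side of the control. This list had a median of 1.196, and 8 of its 9 genes were above 0, 5 of them with fewer than 100 reads in every library.

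Of 9 other iron transport genes, 0 passed. SLC39A14, a metal importer for iron not bound to transferrin, had 258 CPM in the control and 125 and 137 in the knockdown lines (log2 fold change -0.98, adjusted p = 0.066, edgeR). SLC39A8, a related importer, had 199, 238 and 248 CPM (log2 fold change 0.29, adjusted p = 0.52, edgeR). HEPH, a ferroxidase that works with ferroportin, had 255, 144 and 216 CPM (log2 fold change -0.50, adjusted p = 0.36, edgeR). The list had a median of -0.43. In the hepcidin list, 0 of 8 passed, with NEO1, a receptor of the hepcidin pathway, at 103, 58.4 and 102 CPM (log2 fold change -0.37, adjusted p = 0.58, edgeR), and SMAD4, which carries its signal to the nucleus, at 69.6, 58.7 and 63.4 CPM (log2 fold change -0.19, adjusted p = 0.70, edgeR). In the ferritin handling list, 0 of 6 tested passed. SKP1 and CUL1, subunits of the ubiquitin ligase that degrades iron regulatory protein 2, had 372, 436 and 515 CPM and 97.8, 126 and 127 CPM (log2 fold changes 0.35 and 0.37, adjusted p = 0.45 and 0.40, edgeR). HERC2, a ubiquitin ligase, had 134, 118 and 114 CPM (log2 fold change -0.20, adjusted p = 0.66, edgeR). PCBP2, an iron chaperone for ferritin, had 170, 99.4 and 76.6 CPM (log2 fold change -0.95, adjusted p = 0.099, edgeR). NCOA4, the receptor for ferritin breakdown, and FTMT were below the count minimum. This need not mean that they were silent, because reads on gene entries with no matched symbol do not count for them.

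In the mitochondrial list, 0 of 21 passed. SLC25A37, mitoferrin of red cell precursors, had 177 CPM in the control and 286 and 340 in the knockdown lines (log2 fold change 0.83, adjusted p = 0.13, edgeR). HSPA9, a chaperone of iron-sulfur cluster assembly, had 3319, 2124 and 2369 CPM (log2 fold change -0.56, adjusted p = 0.22, edgeR). In the heme list, 0 of 11 passed, with BLVRB, a biliverdin reductase that acts after heme oxygenase, at 183, 162 and 141 CPM (adjusted p = 0.54, edgeR) and BLVRA, the other biliverdin reductase, at 106, 105 and 90.4 CPM (adjusted p = 0.84, edgeR). SLC48A1, a heme transporter, was at 74.2, 47.3 and 53.0 CPM (adjusted p = 0.24, edgeR). In these lists, HSPA9, PCBP1, PCBP2 and SKP1 had RIP-seq sites, which is 4 of 66. This is near the 3.65% of all genes tested and is not a result about iron genes.

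**Figure D5:**
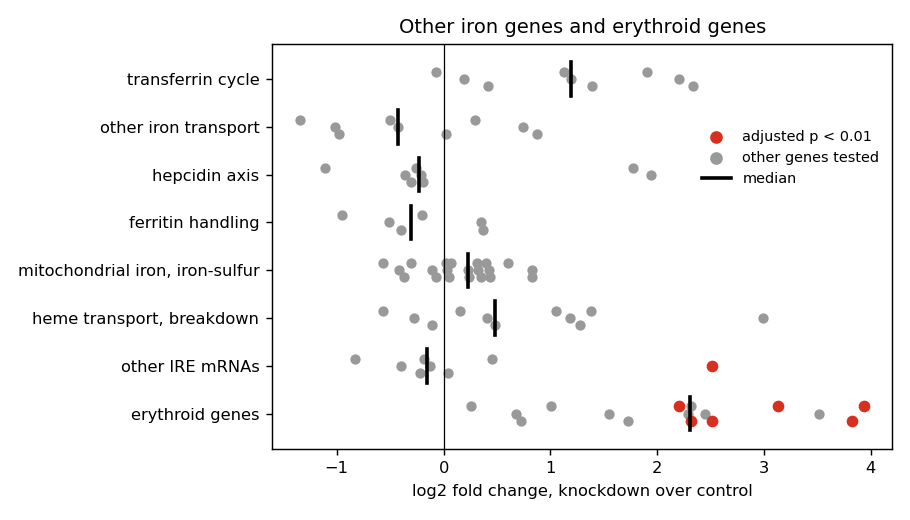
Log2 fold change of knockdown over control for each tested gene of the iron lists, of other mRNAs with an IRE and of erythroid genes, 1 point per gene. Red points passed an adjusted p under 0.01 and bars are medians, at 1.196 for the transferrin cycle and 2.30 for erythroid genes.

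Among 8 other mRNAs reported to carry an IRE, 1 rose. ALAS2, the first enzyme of heme synthesis in red cells, had 6.47 CPM in the control, 40.5 under shRBM15#1 and 33.2 under shRBM15#2 (log2 fold change 2.51, SE 0.31, adjusted p = 0.0085, edgeR). It is also one of the 6 erythroid genes called. The others were between -0.83 and 0.45, among them NDUFS1 (229, 194 and 208 CPM) and SDHD (130, 112 and 111 CPM), subunits of respiratory complexes. The erythroid genes with the most reads were the fetal and embryonic globins. HBE1 rose from 362 CPM to 3326 and 3021 (log2 fold change 3.13, adjusted p = 0.0020, edgeR). HEMGN, a nuclear protein of red cell precursors, rose from 3.23 CPM to 47.6 and 43.9 (log2 fold change 3.82, adjusted p = 0.0020, edgeR). HBA2, HBG1 and HBG2 were called as well, but each has a near-identical copy, and their reads cannot be assigned with certainty. The part of these erythroid differences in those of TFRC, SLC40A1 and HMOX1 was not tested.

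HMOX1 is a target of the activator NRF2 and the repressor BACH1, which respond to heme and oxidative stress. No gene of 6 encoding these regulators and their partners passed, with KEAP1, the inhibitor of NRF2, at 160, 191 and 228 CPM, BACH1 at 111, 107 and 124 CPM, MAFG at 109, 77.1 and 83.7 CPM and NFE2L2, which encodes NRF2, at 85.0, 63.1 and 83.6 CPM. Of 15 further NRF2 targets, 0 passed an adjusted p under 0.01. At an adjusted p under 0.05, 1 was higher and 1 lower. PRDX1, a peroxidase, had 306 CPM in the control and 705 and 754 in the knockdown lines (log2 fold change 1.25, adjusted p = 0.037, edgeR), and SLC7A11, the cystine transporter, had 112, 39.6 and 36.2 CPM (log2 fold change -1.56, adjusted p = 0.014, edgeR). TALDO1, an enzyme of the pentose phosphate pathway, had 531, 508 and 615 CPM (log2 fold change 0.08, adjusted p = 0.89, edgeR). The list ranged from -1.56 to 1.51, with 10 genes above and 5 below 0 and a median of 0.14.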

How the data were processed

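RNA-seq reads (unstranded, paired-end) were aligned by the authors with STAR to GRCh37, and deposited as raw counts per exon bin of Ensembl GRCh37.70 for 3 libraries. Their exon usage table with fold changes and p-values, and those columns of the RIP-seq list, were not used. For the RIP-seq the authors deposited counts for 4 libraries at 1515 significant peaks in hg19. In 2 of these libraries the labelled antibody is not the one of the side on which the authors' comparison put them, so they enter no comparison.

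Members were matched by symbol through a GENCODE v44 annotation lifted to GRCh37, which named 54481 of 62238 genes. Reads on entries it did not name, or on bins shared between genes, count for no symbol. A gene below the count minimum is therefore not shown to be silent. Bin counts were summed per gene. A read spanning several bins counts in each. Reads that named no gene were left out. Taken with the summed bin counts, they were 23.2%, 32.0% and 23.5% of the total in the control, shRBM15#1 and shRBM15#2. As bin counts hold some reads more than once, their share of all reads is higher. Genes and bins summing to 30 reads or more were tested with edgeR 4.0.16 (TMM, quasi-likelihood test, diffSpliceDGE for bins, with its natural-log coefficients put on the log2 scale) and Benjamini-Hochberg adjustment. Genes were called at an adjusted p under 0.01 and bins at an unadjusted p under 0.05 with a fold above 1.2. Each SE was derived from the fold change and its F statistic. For bins of TFRC, SLC11A2, FTL, IREB2 and ACO1 it was smaller than the p-value implies, and their SEs are not printed. The p-values measure the spread of the 2 knockdown lines only. RIP-seq counts were given with no test. Intervals are 95% Wilson and cover counting error only. Where bins were summed they are too narrow, because a read can enter the sum more than once. The tests were checked on simulated data. DESeq2 1.42.0 gave alternatives.

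The members, lists and tests were chosen with earlier results of these data known. All 9 members are named, with each bin past the limits or, where none passed, the smallest p, and each bin with an IRE. Of the lists, genes that passed are named, with up to 4 of the highest count. Genes below the count minimum, and SLC7A11, called at 0.05 only, were named after their values were seen.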

Additional observations from a re-analysis of the deposited data

Results flagged for a closer look

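At the RBM15 site in the 3'UTR of ACO1, the RIP-seq libraries assigned to no condition held 150 reads, in one labelled normal IgG, and 13 reads, in one labelled anti-RBM15, and so drew attention as data outside the comparisons with more reads than the 9 of the assigned normal IgG library. The first of them had 610915 reads over all sites and the second 28845, against 807871 in the assigned anti-RBM15 library and 28387 in the assigned normal IgG library. The labels of the unassigned libraries run against these totals, and whether they were exchanged was not tested. No group had enough samples for a check of single libraries.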

How the results depend on the processing

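The number of the 9 genes called at an adjusted p under 0.01 was 0 in edgeR with TMM, 1 (SLC40A1) with size factors, 2 (SLC40A1 and HMOX1) with no filter on low counts, and 3 (with TFRC) by DESeq2 or, in edgeR, at an adjusted p under 0.05. It was 0 with a summed count of at least 300 and with pseudogene reads added. Over all genes the count was 86, and 191, 801, 0, 525 and 432 with size factors, no filter, the higher minimum, DESeq2 and an adjusted p under 0.05. TFRC, SLC40A1, HMOX1, TFR2 and ACO1 kept their direction in every setting and in each line. With no filter, the TMM factors moved the same genes by a median of -0.13 log2, and SLC11A2 (-0.038), FTH1 (-0.051), FTL (-0.054) and IREB2 (-0.12) took a negative sign, and with the higher minimum by 0.14. FTH1 was also at -0.0073 with pseudogene reads added. Without shRBM15#1 the log2 fold change of FTH1 was -0.22 and without shRBM15#2 it was 0.35. In FTL these values were 0.16 and -0.012, and in IREB2 0.026 and -0.0044.

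Of the members' bins, 11 passed, 0 with bins of at least 300 reads and 0 at an adjusted p under 0.05. Over all bins, 3392 passed, 8733 with bins of at least 1 read, 736 with at least 300 and 48 at an adjusted p under 0.05. The share of SLC11A2 reads on the last exon with the IRE was higher in the lines by 5.70 percentage points of the gene and 9.92 of both last exons. No paired analysis was possible because the control has 1 library and the numbers name shRNAs. When 1 line was left out, no residual degrees of freedom remained and only the fold change is given. Merging exons and introns into units was chosen after seeing the data. The depth limits HMOX1 and SLC40A1 most, at 160 and 408 reads in the control.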
